A study of Homo sapiens with 172 samples.

Results

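Chromosome 17 of KBM7 cells was examined for its contacts with the nuclear lamina, a meshwork of proteins that lines the nuclear membrane on its inner side. KBM7 is a near-haploid human leukaemia line. The deposited table divides chromosome 17 into 812 bins of 100 kb in hg19 coordinates. Of these bins, 33 carry no value and 7 are 0 in every column. The remaining 772 bins were chosen by position alone, and they make up 2.92% of the 26414 bins with signal in the whole table.

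All samples belong to 1 group, haploid (1N) cells of clone 5-5 that carried the Dam methyltransferase fused to LaminB1. Methylation was induced for 15 h with 0.5 nM Shield1, and single cells were sorted from the smallest of those that carried both Fucci cell cycle markers. The cells come from 1 clone, there is no second group, and no separate cultures are named. Values over cells therefore describe cell-to-cell variation, and no p-value was made from them.

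DamID marks adenines in GATC sequences wherever the fusion protein comes near DNA, and the marked fragments are amplified and sequenced. The regions that it finds at the lamina are known as lamina-associated domains. They are commonly long, poor in genes and little transcribed, whereas gene-dense chromosomes tend to lie in the interior of the nucleus. Chromosome 17 belongs to the gene-dense kind. It has 1169 coding genes in the RefSeq table for GRCh38.p14, or 14.4 per Mb of its length in the file. This ranks 2 of the 20 chromosomes with signal that are not joined to another in the table. Gene positions in hg19 were not used here, so no gene is named within the bins.

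Of the 172 labelled samples, 168 had a column. Column n and column n + 86 were treated as 1 cell. The best match of all 168 columns was the one 86 away. Over bins of at least 10 reads in the whole table, the reads of 82 of 84 pairs differed on average by less than sampling noise. Bins of fewer reads did not enter this measure, so it says little of chromosome 17 alone. The pairs of cells 54 and 56 differed by more. Both columns of a cell were averaged, which left n = 84 cells. Whole reads were worked back from the ratios, and the deeper column of a cell held from 7134 to 418937 reads, with a median of 63700. In the median bin of chromosome 17, a median cell needed 2.65 reads for an observed over expected ratio of 1, and 13 cells needed less than 1 read. Cell 48 stood apart, with reads in 95.5% of the bins of chromosome 17 against a median of 21.7% over all cells. Cell 63 had almost no reads on chromosome 17, with 8 in its lower-numbered and 87 in its higher-numbered column out of 102033 and 136041. The columns of cell 64 also differed there, with 33 and 166 reads out of 32551 and 49781. The shares, domain means and correlations over cells that rest most on cells 48, 54, 56 and 63 are also given without these 4 cells.

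Contact of a bin was defined as an averaged ratio of 1 or more. On chromosome 17, 8.44% ± 5.58 (SD, n = 84) of the bins were in contact, against 28.3% ± 6.70 on all other chromosomes with signal together. The lowest cell was cell 63 with 0%, the median was 8.68%, and the highest was cell 48 with 31.2%. In the same cell, chromosome 17 minus the rest was -19.9 ± 7.39 percentage points, and it was below 0 in 84 of 84 cells. The median quotient of both shares was 0.298. Without cells 48, 54, 56 and 63 the share was 8.22% ± 5.00 (n = 80). The reads showed the same without any cutoff. Chromosome 17 held a median of 0.923% of a cell's reads, with a range from 0.0640 to 3.04%, while it made up 2.85% of the expectation.

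Among the 22 chromosomes or joined chromosomes with signal in the table, chromosome 17 ranked 3 from the lowest. Chromosome 8 is not among the 22, and chromosome 15 has only 510 bins with signal. The lowest was 22:9, a joined chromosome of 142 bins, at 1.53% ± 1.79. Chromosome 19, the only one with more coding genes per Mb, was lower at 4.89% ± 4.13, and it was below chromosome 17 in 60 of 84 cells. Chromosome 16 was higher at 15.0% ± 7.86, and it was above chromosome 17 in 65 of 84 cells. Chromosome 18, of nearly the same length, had 33.6% ± 11.9 and was higher in 81 of 84 cells. These differences were not tested, since cells are not replicates.

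**Figure D1:**
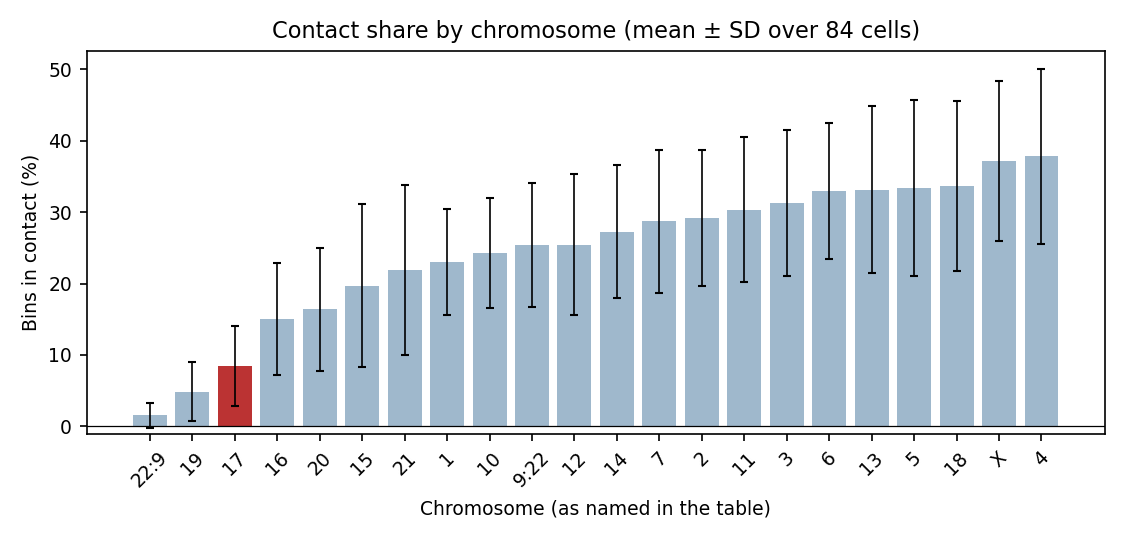
Percent of bins in contact per chromosome, as mean ± SD over 84 cells, with chromosome names as in the table and chromosome 17 in red. Chromosome 17, at 8.44%, lies between chromosome 19 at 4.89% and chromosome 16 at 15.0%.

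Contact frequency is the percent of the 84 cells in which a bin was in contact. Over the 772 bins it had a median of 2.38% and a mean of 8.44%, so that most bins lay near 0 and a few lay far above. In all, 567 bins (73.4%) had a frequency under 5%, against 36.7% of all bins in the table. No contact was seen in 100 bins (13.0%, against 6.19% of all bins), where the limit of 3 counts used for a count of 0 comes to 3.57% and the exact two-sided 95% interval reaches 4.30%. Frequencies from 5 to under 20% were found in 103 bins (13.3%, against 15.6%). At least 20% was reached in 102 bins (13.2%, against 47.7%), and at least 50% in 45 bins (5.83%, against 30.7%). The number of bins under 5% rests on the cutoff, since it was 43.0% of bins when a ratio of 0.5 counted as contact.

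The contacted bins were gathered in a few places. The 102 bins at 20% or more formed 14 stretches of neighbouring bins, here called islands, of which 5 had at least 5 bins. Joining islands less than 1 Mb apart gave 4 domains, 1 on the short arm and the others on the long arm. This joining was chosen after the frequencies were seen. The 4 domains hold 123 bins, or 15.9% of the chromosome's bins, and 70.9% of its 5475 contacts. They made up 18.0% of the expected reads of chromosome 17 and held a median of 75.4% of its observed reads in a cell, from 14.3 to 94.7%.

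**Figure D2:**
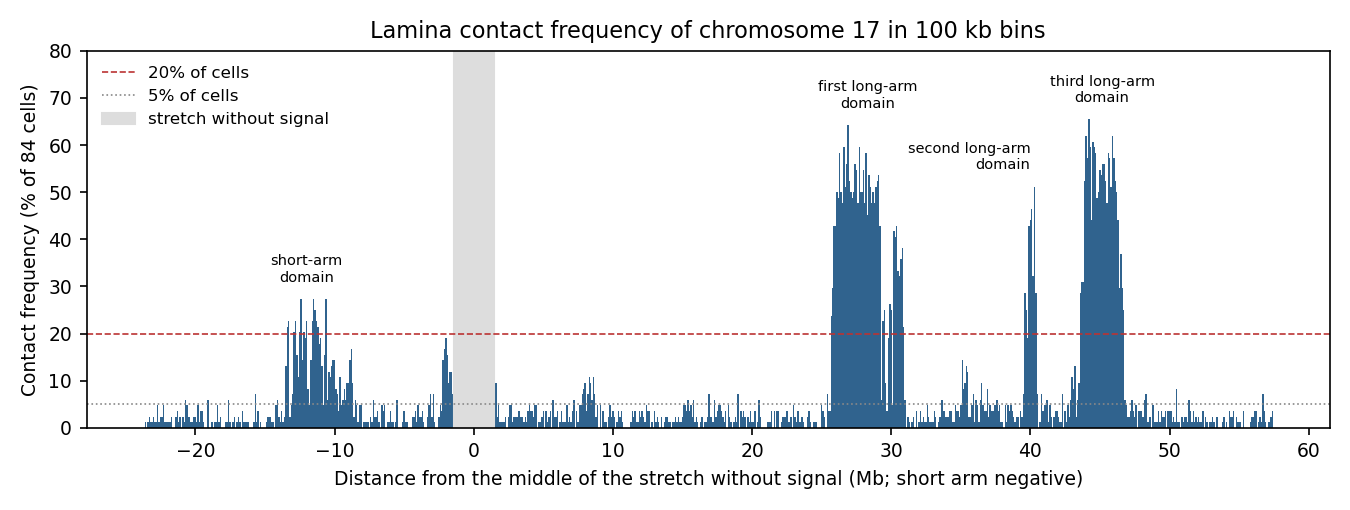
Contact frequency of each 100 kb bin of chromosome 17 (percent of 84 cells), by distance from the middle of the 2.9 Mb stretch without signal between the arms. The 4 domains stand out from a floor that is mostly under 5%, and the highest bin reaches 65.5%.

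Since the islands were chosen on the same cells, they were also chosen in one set of cells and counted in another. Islands from the 42 odd-numbered cells covered 101 bins and held 68.7% ± 23.4 (SD, n = 42) of a cell's contacts in the even-numbered cells. Islands from the even-numbered cells covered 99 bins and held 65.8% ± 26.5 (n = 41) in the odd-numbered cells. Both sets shared 91 bins. The positions of the islands thus differed little between these sets of cells.

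The first long-arm domain spans 17:49400001 to 54700000, which is 5.3 Mb in 4 islands, with a mean frequency of 42.0%. Its main island, 17:49400001 to 53000000, is the longest of the chromosome with 36 bins and a mean of 50.0%. Its first bin had a frequency of 23.8%, and its highest, 64.3% (54 of 84 cells, exact 95% interval 53.1 to 74.4%), was at 17:50600001 to 50700000. At its far border it fell from 42.9% to 5.95% between neighbouring bins, at 17:53000000. Exact intervals here and below cover counting error only.

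Beyond this border the domain was broken up. Of the 9 bins from 17:53000001 to 53900000, only 4 reached 20%, and the highest was 26.2%. The next island began at 17:53900001 with 41.7%, a step of 36.9 points from the bin before it at 4.76%. It ran for 0.8 Mb to 17:54700000, with a mean of 35.7%. Both steps at the edges of this dip, one down and one up, were the largest between neighbouring bins on chromosome 17. The 3 bins of fewest contacts in the dip were 17:53000001 to 53100000, 17:53400001 to 53500000 and 17:53800001 to 53900000, with 5, 3 and 4 of 84 cells. In 26 cells both the last bin of the main island and the first bin of the next one were in contact. Of these 26 cells, the 3 bins were in contact in 5, 2 and 1, and had a ratio above 0 in 21, 22 and 18.

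The third long-arm domain, 17:67300001 to 70500000, is a single island of 32 bins (3.2 Mb) with a mean of 49.4%. It held the highest bin of chromosome 17, 17:67900001 to 68000000, with contact in 55 of 84 cells (65.5%, exact 95% interval 54.3 to 75.5%). The next highest bins were 17:50600001 to 50700000 in the first long-arm domain (64.3%), then 17:67700001 to 67800000 and 17:69600001 to 69700000 (both 61.9%) and 17:68200001 to 68300000 (60.7%). The intervals of these 5 bins overlap. All bins were scored in the same cells, so the intervals do not settle the order, which was not tested. Elsewhere in the table the highest frequency of any bin was 88.1%. The domain had shoulders at both sides, with 28.6 to 31.0% in its first 3 bins and 25.0 to 36.9% in its last 4. At its end the frequency fell from 25.0 to 5.95% in the next bin.

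Between them lay the second long-arm domain, 17:63300001 to 64200000, which is 0.9 Mb long with a mean of 35.3%. It has an island of 0.2 Mb, a bin at 19.0% and an island of 0.6 Mb from 17:63600001 with a mean of 40.9%. Its highest bin, 17:64000001 to 64100000, was in contact in 43 of 84 cells (51.2%), and the frequency fell by 22.6 points in the next bin.

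The short-arm domain, 17:10300001 to 13200000, was weaker and more uneven. Its 29 bins had a mean of 17.1% and ran from 2.38 to 27.4%. Only 14 of them reached 20%, and these formed 7 islands, of which the longest was 17:12100001 to 12600000 with a mean of 23.8%. The highest bins, among them 17:11300001 to 11400000, were in contact in 23 of 84 cells. Towards the centromere it gave way to stretches of 5 to 20%, at 17:13200001 to 14000000 with a mean of 10.7% and at 17:14300001 to 15100000 with 9.97%. On the whole chromosome, 3 bins lay just inside the limit of 20% at 17 cells (20.2%) and 5 just outside it at 16 cells (19.0%).

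The arms differed accordingly. They are parted by the longest stretch without signal, 17:22300001 to 25200000. The 554 bins of the long arm had 9.75% ± 6.30 in contact and the 218 bins of the short arm 5.13% ± 5.71 (SD, n = 84). The long arm was higher in 69 cells and lower in 14, with 1 tie, by 4.61 ± 5.70 points on average, and by 4.57 ± 5.57 without cells 48, 54, 56 and 63 (n = 80). On the long arm, 88 bins (15.9%) reached 20% and 45 (8.12%) reached 50%, while 14 bins (6.42%) and none did on the short arm. The share of bins under 5% was nearly the same, with 74.0% on the long arm and 72.0% on the short arm. From 5 to under 20% there were 56 bins (10.1%) on the long arm and 47 (21.6%) on the short arm. No bin was in contact in 12 cells on the short arm and in 1 cell, cell 63, on the long arm.

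Away from the domains, long stretches met the lamina in few cells. The longest under 5% was 17:75200001 to 80400000, with 52 bins, a mean of 1.49% and no bin above 3.57%. It was followed by 17:44700001 to 49100000 (mean 1.68%), 17:34800001 to 39100000 (1.97%), 17:25400001 to 29400000 (2.44%) and 17:1 to 3000000 (1.63%). The second of these ends 0.3 Mb before the first long-arm domain. Both chromosome ends were low as well. The first 2 Mb had a mean of 1.67% and a highest bin of 4.76%, and the last 2 Mb had 1.90% and 7.14%. All bins outside the domains had a mean of 2.92% and a median of 2.38%. The sides of the stretch without signal were unlike each other. The 2 Mb before it on the short arm had a mean of 7.46% and a highest bin of 19.0%, and the 2 Mb after it on the long arm had 2.98%. The short-arm stretch 17:21500001 to 22300000, with 13.2%, had a mean expectation of only 91.9 units per bin, against a median of 315 on the chromosome. Fewer reads make a ratio of 1 in such bins, and the part of this in the frequency was not tested.

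In single cells the domains were contacted in part, in full or not at all. The first long-arm domain had 42.0% ± 30.7 of its bins in contact (SD, n = 84), with a lowest value of 0%, a median of 38.7% and a highest of 96.2%. No contact in it was found in 5 cells, under 25% of its bins in 27 cells, 25 to 75% in 35 cells and over 75% in 17 cells. The third long-arm domain had 49.4% ± 33.5, from 0 to 100% with a median of 50.0%. It was free of contact in 7 cells and over 75% in 27 cells. The second long-arm domain had 35.3% ± 33.1, with no contact in 27 cells and all of its 9 bins in contact in 4 cells. The short-arm domain had 17.1% ± 24.4, with no contact in 36 cells and over 75% in 4 cells. Outside the domains 2.92% ± 3.92 of the bins were in contact, and 2.62% ± 2.83 without cell 48 (n = 83). Without cells 48, 54, 56 and 63 (n = 80) the mean was 17.2% in the short-arm domain, 42.7, 36.3 and 50.0% in the first, the second and the third long-arm domain, and 2.55% outside.

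**Figure D3:**
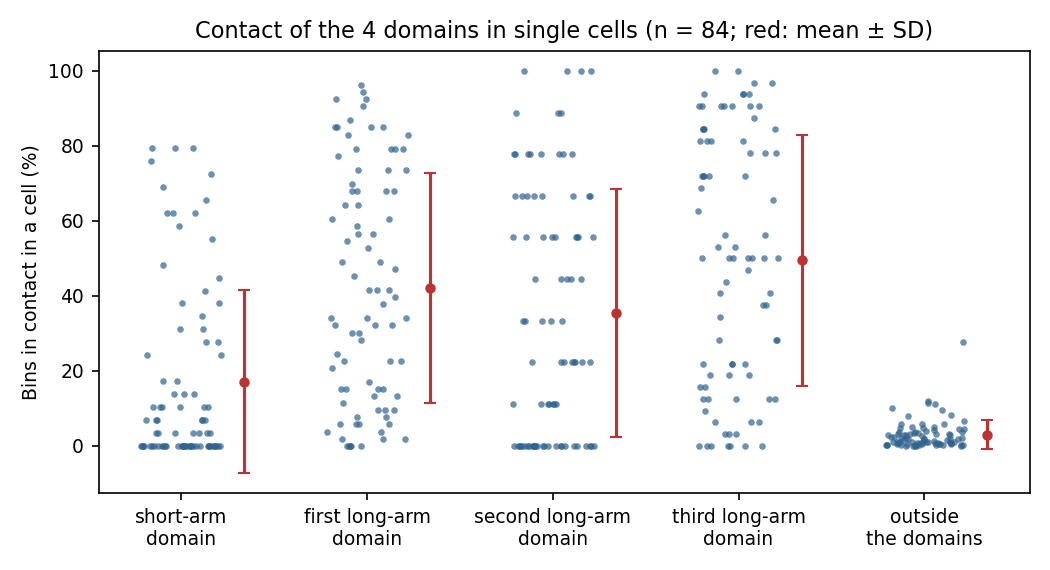
Percent of a domain's bins in contact in each of 84 cells (points), with the mean ± SD beside them in red. In the first and the third long-arm domain cells spread from 0% to 96.2 and 100%, while outside the domains all cells but cell 48 stay at or under 12.0%.

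In many cells the longest islands were contacted on both sides of their middle, but seldom in every bin. Every bin was in contact in 4 cells for the main island of the first long-arm domain, and in 2 cells for the third long-arm domain. The longest series of consecutive contacted bins had a median of 9 and 8 bins over cells with contact there. Depth limits these values, since a ratio of 1 stood for 2.65 reads in the median bin of a median cell. The deepest cell, cell 36 with 418937 reads, had 97.2 and 96.9% of the bins of these islands in contact. Cell 73, with 190689 reads, had 2.78 and 0%. The part of depth in the partial contact was not tested. When the main island of the first long-arm domain was cut at its middle, both parts had at least 50% of their bins in contact in 35 cells, neither in 31, only the first in 9 and only the second in 9. The contact shares of both parts correlated over cells at r = 0.81, once a straight-line dependence on the share of the other chromosomes had been taken out. For the third long-arm domain both parts were in contact in 38 cells, neither in 33, only the first in 10 and only the second in 3, with r = 0.77. Without cells 48, 54, 56 and 63 these values were 0.81 and 0.76. Among bins at 20% or more, the mean corrected correlation over the 84 cells was 0.54 for adjacent bins (88 pairs), 0.42 at 1 Mb (61 pairs) and 0.35 at 2 Mb (42 pairs). All such correlations are descriptions, since the cells share method, clone and differences in depth.

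**Figure D4:**
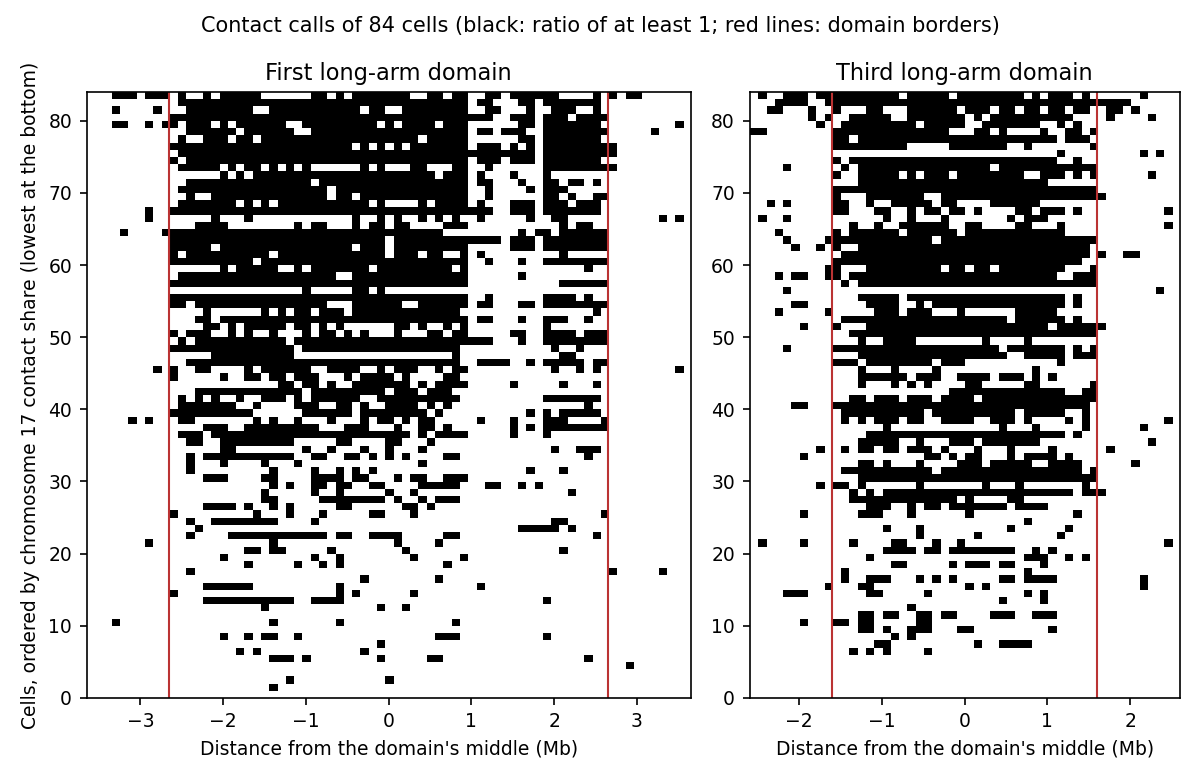
Contact calls (black, ratio of at least 1) in the first and the third long-arm domain with 1 Mb on both sides, for 84 cells ordered by their chromosome 17 contact share. Black calls are sparse outside the borders, and the first domain shows the dip between its main island and the 0.8 Mb island at its right.

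Runs of consecutive contacted bins were also counted. Chromosome 17 had 2249 runs in 83 cells, with a mean of 2.85 ± 1.94 bins per cell (SD, n = 83), against 3.73 ± 1.52 on the other chromosomes (n = 84). In the same cell the mean run was shorter on chromosome 17 in 68 of 83 cells. Run length differed with coverage. In the 42 cells with at least the median share of bins above 0, the mean run on chromosome 17 was 3.65 ± 2.20 bins. The part of coverage in the run lengths was not tested. The other chromosomes of lowest contact share had similar or shorter mean runs. These were 1.16 bins on 22:9 (n = 55), 1.78 on chromosome 19, 2.94 on 16, 3.00 on 20 and 2.81 on 15. Of the 89 runs of at least 10 bins on chromosome 17, 87 touched a domain. The domains were drawn from contacts of the same cells, so this count is a description only. The longest was a run of 4.3 Mb in cell 18, from 17:49500001 to 53800000, followed by runs of 3.9 Mb in cells 58 and 71, both from 17:49400001 to 53300000. These 3 runs started within 0.1 Mb of each other at the left border of the first long-arm domain. Cell 69 had a run of 3.7 Mb over the third long-arm domain that passed both of its borders, from 17:67200001 to 70900000. Outside the domains 1190 runs were found, and 85.3% of them were single bins. Single bins also made up 48.0% of the 1059 runs that touched a domain, and 67.7% of all runs.

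The long-arm domains were often contacted in the same cells. At a limit of 50% of a domain's bins, the first and the third long-arm domains, 12.6 Mb apart, were both in contact in 30 cells, the first alone in 4, the third alone in 16, and neither in 34. Their corrected correlation was 0.54. It was 0.58 for the first and second domains, 8.6 Mb apart, and 0.46 for the second and the third, 3.1 Mb apart. The short-arm domain was in contact in 12 cells at this limit, and 8 of them also had the first long-arm domain and 9 the third. Its corrected correlations with the long-arm domains were from 0.27 to 0.37. Without cells 48, 54, 56 and 63 each of the 6 correlations moved by 0.01 at most. Both arms as a whole correlated at 0.58 after the same correction and at 0.53 without these cells. Other chromosomes were likewise split at their longest stretch without signal, which need not lie between their arms. The 17 of them with at least 50 bins on both sides had a median of 0.45, from 0.25 to 0.63. All 4 domains reached the limit in 5 cells, and no domain did in 29 cells. Cell 69, 1 of these 5, had 86.8% of the first, 100% of the second and the third, and 65.5% of the short-arm domain in contact.

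Cell 18 departed from this pattern and had 96.2% of the first long-arm domain in contact but 3.12% of the third and 0% of the second. Cell 48 had the most contacts outside the domains, 180 of 1592 (11.3%), and the 10 cells with the most held 44.9%.

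Cells also differed in how far chromosome 17 as a whole reached the lamina. Its contact share was under 1% in 5 cells and over 15% in 9. In cell 73, 0.130% of its bins were in contact, or 1 bin, against 35.1% on the other chromosomes. Cell 35 had 0.259% against 34.9%, cell 27 had 0.389% against 25.0%, and cell 12 had 0.777% against 33.5%. Cells 73 and 35 lay above the median depth, with 190689 and 225882 reads in the deeper column. Cells 27 and 12 lay below it, with 43071 and 52664 reads. In this order, 0.142, 0.216, 0.121 and 0.161% of the reads lay on chromosome 17. The coefficient of variation of the contact share over cells was 66.1%, which ranked 3 among the 22 chromosomes after 22:9 with 116% and chromosome 19 with 84.5%. These are also the chromosomes of lowest mean, where a given SD makes a larger coefficient.

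The share on chromosome 17 followed the rest of the genome only loosely, with r = 0.29 over 84 cells and 0.23 without cell 48. Contact on the other chromosomes correlated with the log10 of a cell's reads at 0.77, and contact on chromosome 17 at 0.18. Within chromosome 17, the domains and the other bins differed with depth in opposite directions. In the 42 deeper cells, with a median of 149063 reads, the third long-arm domain had 60.8% of its bins in contact and the bins outside the domains 1.90%. In the 42 shallower cells, with a median of 35083 reads, these values were 38.1 and 3.94%. The first long-arm domain had 47.0% in the deeper and 37.1% in the shallower cells, and the short-arm domain 17.6 and 16.6%. The part of depth in the frequencies above was not tested further.

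**Figure D5:**
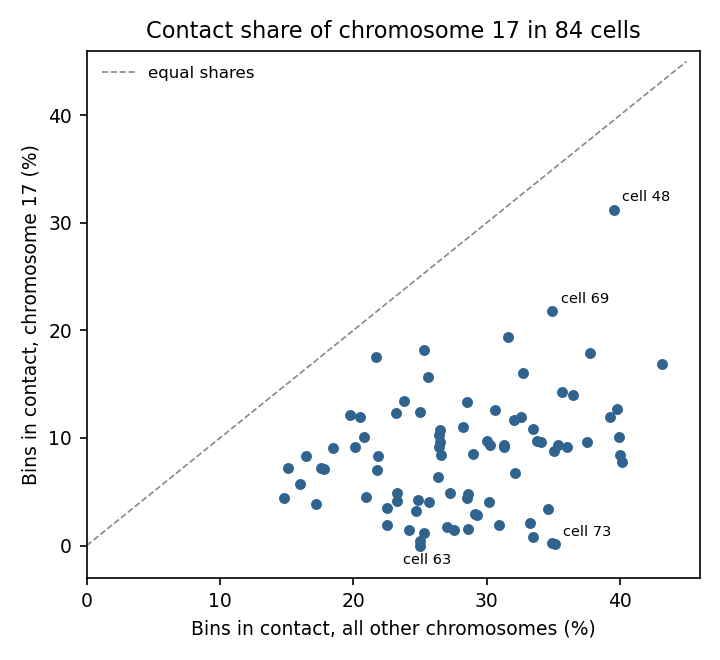
Percent of chromosome 17 bins in contact against the percent on all other chromosomes, 1 point per cell (n = 84). Every cell lies under the dashed line of equal shares, from cell 63 at 0% to cell 48 at 31.2%.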

How the data were processed

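Per the submitters' processing notes, cutadapt, Bowtie2 2.1.0 and the build hg19 were used upstream. The values are the authors' deposited ratios of observed over expected reads per 100 kb bin. The sources used here do not say how the expectation was built or how duplicates were treated. Within a bin all values are whole multiples of 1 step times a factor per column, and 100% came out whole within 0.02. A simulated table drawn around these reads gave back 99.997% of 1750489 values, which does not show that the units are right. The islands' joining at 1 Mb and the split into cells 1 to 29 and 30 to 86 were chosen after seeing the data. Columns were paired on log reads, with a chi-square over bins of at least 10 reads. The frequency limits of 20 and 5%, the 2 Mb ends and the rule for named regions (the islands of at least 5 bins, the 5 highest bins, the 5 longest stretches under 5%, ends and flanks) were set with earlier results of these data known. Cells and positions named beyond this rule were chosen after their values were seen. Intervals are exact Clopper-Pearson 95% intervals, and a frequency of 0 was limited at 3 cells. The intervals cover the counting of cells alone, as if cells were independent draws. They leave out errors in the calls, since reads amplified by PCR and carrying no molecular identifier can stem from 1 molecule. Genes of RefSeq were only counted per chromosome, since their positions are in another build. Python 3.11.15, numpy 2.4.6, pandas 2.3.3, scipy 1.17.1 and matplotlib 3.10.9 were used. Alternatives are given in the closing section, and samples without a column were not analysed here.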

Additional observations from a re-analysis of the deposited data

How the results depend on the processing

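Each of 9 results was recomputed under 12 alternatives (cutoffs, scaling of each cell, single columns, sets of cells, 5 bins averaged), and 2 of them also under other island limits or a longer end. Of 111 values, 106 stayed within 1 SD over cells, within 1.5-fold for percents of bins, or, for the correlation between arms, within the SD over other chromosomes. None changed sign. The contact share of chromosome 17 ran from 4.29 to 13.1%, its difference from the rest from -24.0 to -12.3 points, its end bins minus its other bins from -9.53 to -4.03 points, the long arm minus the short arm from 3.06 to 6.20 points, the percent of bins at 20% or more from 8.81 to 17.7%, and the percent of contacts inside islands from 57.3 to 79.4%. In the comparison of end bins, the other bins include all 4 domains, so its sign reflects where the domains lie. Of the 5 values that moved, the cutoff of 2 gave a difference from the rest of -12.3 points and a correlation between arms of 0.44. The cutoff of 0.5 gave 0.69 for this correlation and 43.0% of bins under 5%, against 73.4%. The running mean over 5 bins, which merges neighbours, gave a mean run length of 11.1 bins. Cells 1 to 29 and 30 to 86, added after seeing the data, moved no result past these limits. The SD over single cells is a wide limit for a mean over many cells, so this does not show that both sets are alike. Islands were drawn anew under each alternative, from the same cells in which they were counted. They held 57.3% of a cell's contacts in cells 1 to 29 and 76.9% in cells 30 to 86. The mean run was also shorter in cells 1 to 29. Their median depth was 35922 reads, against 124072 in cells 30 to 86, and the part of depth in these differences was not tested. Depth limits single calls, since in 13 cells a ratio of 1 stood for under 1 read in the median bin. No paired analysis was possible because all cells form 1 group, so no groups could be paired by replicate number, and the differences within a cell are descriptions.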

Other observations

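A few weaker places on the long arm lay outside the domains and stayed under 20%. The mean frequency was 8.53% at 17:31900001 to 32500000 and 11.4% at 17:58800001 to 59300000. It was 9.52% at 17:66600001 to 67000000, just before the third long-arm domain. Contact in any bin of these stretches was found in 14, 25 and 21 of 84 cells. They are given as values only.

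After correction for the other chromosomes, the contact share of chromosome 17 correlated over the 84 cells with that of single other chromosomes at r from -0.30 to 0.37, with a median of 0.04. The lowest value was with chromosome 7 and the highest with 22:9, where only 1.53% of bins were in contact on average. The cells share depth and method, and these values are descriptions.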
